A study of Mus musculus with 6 samples.

Results

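The genes described here are 10 early genes of 4 families, namely Egr1, Egr2, Egr3, Nr4a1, Nr4a2, Nr4a3, Klf2, Klf4, Ier2 and Ier3, measured by RNA-seq in freshly isolated muscle stem cells (MuSCs). Members were taken by gene symbol from a table of 22081 genes, and all 10 were among the 18562 genes with a mean of at least 5 that were tested. The libraries fall into 2 groups of 3. Both groups came from mice of the C57BL/6 strain. Cells labelled Taf4asKO came from mice carrying floxed Taf4a and the tamoxifen-inducible Pax7CreERT, in which exons of the gene for the TFIID subunit TAF4A are removed in cells that express Pax7. Control cells are labelled Control and WT, and the study describes its controls as littermates with floxed Taf4a, with or without Pax7CreERT, so the presence of Cre in each control library is not known. Its list of genotypes names tamoxifen for Taf4asKO alone, so whether the mice of each control library received tamoxifen is not known either. The study used adult mice of both sexes and isolated MuSCs some weeks after tamoxifen, without giving age, sex or interval for each library. According to the study's methods, muscles of limb and trunk were minced and digested with enzymes, cells carrying SCA1, CD45 or CD31 were depleted, and MuSCs were sorted by integrin-α7 or a Pax7 reporter before lysis. Total RNA input was 10 ng per library.

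Early genes, also called immediate early genes, are transcribed within minutes of a stimulus, since the factors that switch them on, such as the serum response factor SRF with its ETS-family partners, CREB and MEF2, are already present and are activated by kinases. Their transcripts are short-lived. In muscle stem cells, as in many tissues, they are well known to be switched on by enzymatic dissociation and sorting, and the same genes are also induced when quiescent cells are activated in the animal. EGR proteins are zinc-finger transcription factors held in check by the corepressors NAB1 and NAB2, NR4A proteins are orphan nuclear receptors that act without a known hormone, KLF2 and KLF4 are Krüppel-like zinc-finger factors linked to quiescence and growth arrest, IER2 is a nuclear protein, and IER3 is a regulator of cell survival. All 6 libraries came from isolated cells and no RNA of undissociated muscle belongs to the comparison, so transcripts made before and during isolation cannot be told apart in these values. Handling time per library is not given in the sources used here, and its part in the results was not tested.

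Promoter sequence was examined for elements known from early genes. RefSeq promoter windows of 300 bases on GRCm38.p6 (the build mm10), from 250 bases before to 50 bases after the start, were matched for 7 of the 10 members, namely Egr2, Nr4a1, Nr4a2, Nr4a3, Klf2, Klf4 and Ier3. Both strands were searched for the CArG box bound by SRF, for the CREB site TGACGTCA and its 5-base part TGACG, for the NF-Y site CCAAT, for the GC box GGGCGG and for TATAAA. Each full site also counts towards its 5-base part. Such 5-base parts were found in the windows of 6 of the 7 members, all but Ier3, compared with 20.8% of the 32817 promoter windows in the RefSeq table. The GC box was likewise found in 6, all but Egr2, against 35.6% of all windows. A CArG box was present in 1 window, that of Egr2, at bases 72 to 63 before the start, against 1.63% of all windows. CCAAT was found in Egr2 and Ier3 (37.4% of all windows), TATAAA in Nr4a2 (13.6%), and the full CREB site in none of the 7 (1.79%). The 7 windows were 54.0% to 81.7% G and C, and the shares over all windows were not matched for base composition. The matches are letters in a window, with no measurement of binding.

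The sequences shown are the CArG-containing site of Egr2, the windows of all 3 Nr4a genes, whose members differed in their values, and that of Klf4, which had the largest fold change. They are written 5′ to 3′ on the gene's strand and hold only bases before the exons. Positions are Egr2 chr10:67537787-67537816 (plus strand), Nr4a1 chr15:101266596-101266845 (plus), Nr4a2 chr2:57124004-57124253 (minus), Nr4a3 chr4:48045055-48045152 (plus) and Klf4 chr4:55532476-55532725 (minus). Capitals mark the CArG box in Egr2 and, in the others, the 5-base CREB part, the GC box and TATAAA, or their reverse complements.
Egr2: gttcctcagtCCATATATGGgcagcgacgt
Nr4a1: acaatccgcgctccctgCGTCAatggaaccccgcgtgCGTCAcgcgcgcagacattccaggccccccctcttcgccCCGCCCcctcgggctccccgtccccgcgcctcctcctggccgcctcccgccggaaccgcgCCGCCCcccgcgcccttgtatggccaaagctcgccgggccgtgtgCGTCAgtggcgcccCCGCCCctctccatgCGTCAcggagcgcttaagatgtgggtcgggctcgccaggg
Nr4a2: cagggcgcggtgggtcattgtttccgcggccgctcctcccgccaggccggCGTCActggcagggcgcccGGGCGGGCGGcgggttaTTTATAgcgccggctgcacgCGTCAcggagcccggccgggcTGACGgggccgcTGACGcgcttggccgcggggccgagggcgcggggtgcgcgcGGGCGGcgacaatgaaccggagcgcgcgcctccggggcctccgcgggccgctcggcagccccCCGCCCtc
Nr4a3: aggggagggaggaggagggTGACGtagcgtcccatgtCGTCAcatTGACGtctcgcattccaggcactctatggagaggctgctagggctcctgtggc
Klf4: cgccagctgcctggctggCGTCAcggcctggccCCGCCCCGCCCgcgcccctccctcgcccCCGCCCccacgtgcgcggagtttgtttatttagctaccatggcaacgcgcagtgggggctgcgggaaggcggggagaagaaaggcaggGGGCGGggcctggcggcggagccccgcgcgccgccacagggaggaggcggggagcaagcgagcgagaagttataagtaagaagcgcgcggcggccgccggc
Nr4a1, Nr4a2 and Nr4a3 each held 4 copies of the 5-base CREB part in the 300-base window, and Klf4 held 1 copy of it and 4 of the GC box.

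Values are read counts that the authors normalized with DESeq2 and rounded, called normalized counts here. They summed to between 12338676 and 14551732 per library, and the reads behind them were estimated at 10.6 M to 17.6 M per library. Taf4, the deleted gene, was at 613, 534 and 478 across control replicates 1 to 3, and at 631, 565 and 574 across Taf4asKO replicates 1 to 3 (limma log2 fold change 0.13, SE 0.12, adjusted p = 0.524). The whole-gene value includes many exons outside the deleted stretch, so it does not check the labels, and each direction given here rests on the labels. The MuSC markers were abundant in every library, with Pax7 at 10363 to 13007. Of 10 such markers 2 were higher and 4 lower past the threshold defined with the early genes, beside 5.93% and 6.71% of all tested genes. The sum of the 10 markers was 50250 to 52163 in control and 46305 to 48463 in the libraries labelled Taf4asKO. Other cell types left transcripts too, as given with the markers at the end. On reanalysis the study found its sorted cells to be mostly but not fully pure, without giving the purity of each library. In bulk RNA, a change in the number of cells of a type and a change of RNA per cell cannot be told apart.

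Levels of the members were compared per length, as normalized counts per kb of exon. Egr1 was the highest member in both groups, with 15750 ± 2199 per kb (SD, n = 3) in control and 24410 ± 1975 in Taf4asKO, and ranked between 14 and 22 among 18532 genes in the 6 libraries. Its normalized counts made up 0.411% to 0.612% of the total in control libraries and 0.779% to 0.917% in those labelled Taf4asKO. Ier2, Nr4a1 and Klf4 followed, at 3430 ± 255, 2291 ± 902 and 1385 ± 387 per kb in control. The levels per kb in control then fell through Egr2 (484 ± 113), Ier3 (431 ± 44.2), Nr4a3 (329 ± 91.5), Klf2 (198 ± 11.7) and Egr3 (178 ± 64.8) to Nr4a2 (55.6 ± 21.8). In control libraries the ranges of neighbours in this order overlapped for Nr4a1 and Klf4, for Egr2 and Ier3, for Ier3 and Nr4a3 and for Klf2 and Egr3. In the libraries labelled Taf4asKO, Nr4a3 (614 ± 269 per kb) stood before Ier3 and Egr2, with overlapping ranges among the 3. Egr1, Ier2, Nr4a1 and Klf4 lay between percentiles 98.4 and 99.9 of all genes in every library, whereas Nr4a2 lay between percentiles 49.5 and 74.2.

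**Figure D1:**
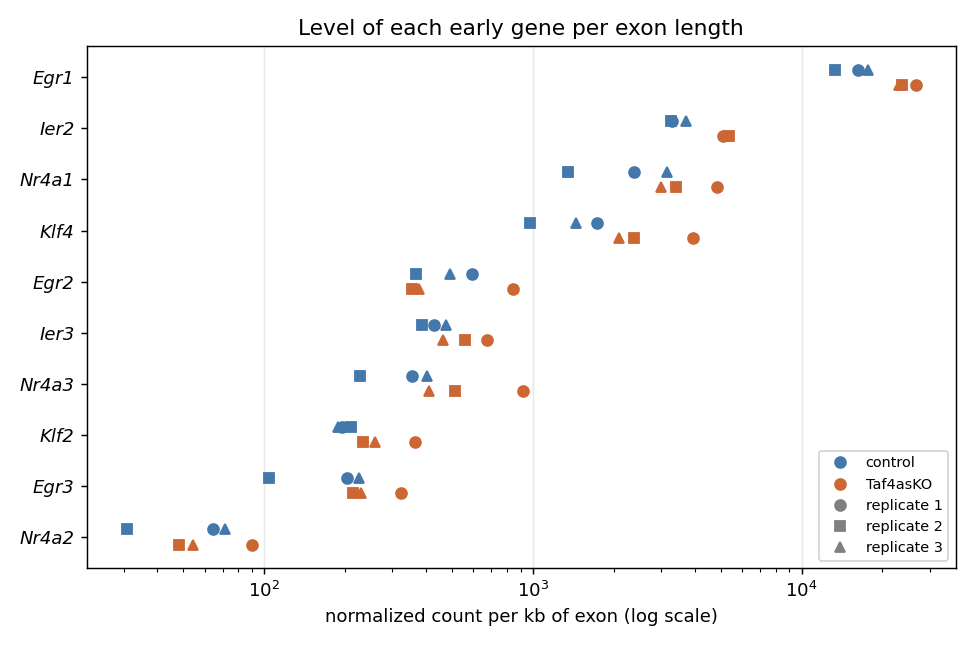
Normalized count per kb of exon (x axis, log scale) of each early gene, with 1 point per library, colours for the groups and marker shapes for replicate numbers. Egr1 lies apart from the rest in both groups, at 13350 to 26660 per kb, and Nr4a2 is lowest at 30.8 to 90.4.

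Early genes were higher in the libraries labelled Taf4asKO than in control where they passed the test, and none was lower. Past the threshold (adjusted p under 0.05 in limma and a fold change of at least 1.3) were Egr1, Klf4 and Ier2, which is 3 of 10 members, beside 5.93% of all tested genes called higher, 6.71% called lower and 12.6% in all. The median log2 fold change of the 10 members was 0.60, and that of all tested genes was 0.004. The replicate number was also used as a block, since libraries of equal number deviated weakly together over all tested genes (r = 0.126 to 0.235). Egr3, Nr4a1, Nr4a3 and Klf2 then passed as well, which made 7 of 10. In that fit 9.09% of all genes were called higher and 8.98% lower. Among the members, libraries with number 3 did not deviate together. Control replicate 3 was above its group mean for 9 members and Taf4asKO replicate 3 for 0. In 5 members, namely Egr1, Nr4a3, Klf2, Klf4 and Ier2, every library labelled Taf4asKO lay above every control library, against 16.6% of all tested genes. Taken without adjustment, 7 of the 10 members had p under 0.05 in the fit without the block, compared with 28.8% of all tested genes.

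**Figure D2:**
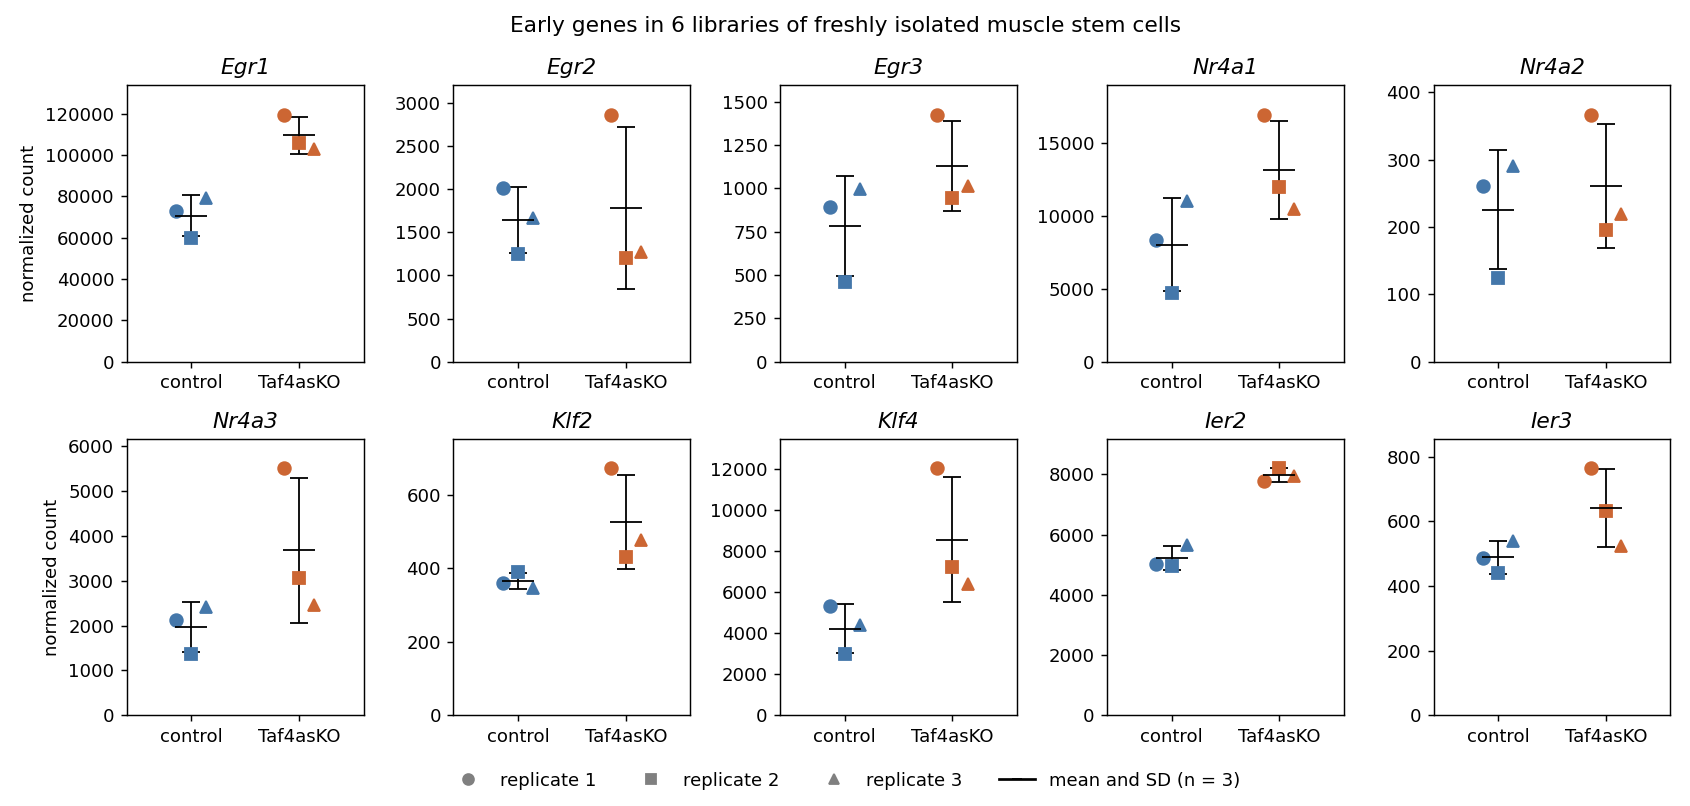
Normalized counts (y axes from 0) of the 10 early genes in 3 control and 3 Taf4asKO libraries, with the mean and SD of each group and marker shapes for replicate numbers. Groups do not overlap for Egr1, Nr4a3, Klf2, Klf4 and Ier2, and Taf4asKO replicate 1 is the highest library for 9 of the 10 genes.

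Egr1 (ENSMUSG00000038418, chromosome 18, 34859823 to 34864984, plus strand, mm10) encodes the growth-factor-induced zinc-finger factor of its family. It counted 72816, 59848 and 79197 (normalized counts of replicates 1 to 3) for control cells, and 119554, 105889 and 102958 for Taf4asKO cells. All 3 Taf4asKO libraries lay above the highest control library. Its mean rose from 70620 ± 9860 to 109467 ± 8858 (SD, n = 3), 1.55 times the control mean. This is a log2 fold change of 0.64 (SE 0.15, 95% interval 0.302 to 0.976, adjusted p = 0.0224 with limma). The call was lost without Taf4asKO replicate 1, 2 or 3 (adjusted p = 0.0686, 0.0873 and 0.0735), with log2 fold changes of 0.57, 0.66 and 0.68. It was also lost with upper-quartile scaling, library total scaling and no variance trend (adjusted p = 0.0604, 0.098 and 0.0705).

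Egr2 (ENSMUSG00000037868, chromosome 10, 67537869 to 67542188, plus strand) is known for its role in Schwann cell myelination and in T cells. It counted 2015, 1249 and 1666 for control cells against 2865, 1205 and 1276 for Taf4asKO cells. A single library, Taf4asKO replicate 1, stood above all others, and the remaining 2 lay within or below the control range. No difference between the groups was detected (log2 fold change 0.02, SE 0.30, 95% interval -0.63 to 0.68, adjusted p = 0.971). Without Taf4asKO replicate 1 the log2 fold change was -0.38 (adjusted p = 0.251). In normalized counts, Egr1 exceeded Egr2 41.7-fold, 87.9-fold and 80.7-fold in Taf4asKO replicates 1 to 3, compared with 36.1-fold, 47.9-fold and 47.5-fold in control. Taf4asKO replicate 1 lay within the control range of this ratio and the other libraries labelled Taf4asKO lay above it.

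Egr3 (ENSMUSG00000033730, chromosome 14, 70077203 to 70082550, plus strand), needed for muscle spindles, counted 895, 458 and 995 for control cells against 1425, 946 and 1012 for Taf4asKO cells. Taf4asKO replicate 2 lay below control replicate 3, so the groups overlapped. The log2 fold change of 0.58 (SE 0.26) did not pass in limma without the block (adjusted p = 0.179) and passed with it (adjusted p = 0.0253, 95% interval 0.23 to 0.93). Within equal numbers the ratio of Taf4asKO to control was 1.59, 2.07 and 1.02, so the pair with number 3 was nearly level. Egr4, the remaining gene of the family, was barely present with a mean of 3.0 and was not tested.

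Among the NR4A receptors, Nr4a1 and Nr4a3 were far more abundant than Nr4a2. Nr4a1 (Nur77, ENSMUSG00000023034, chromosome 15, 101266846 to 101274792, plus strand) counted 8336, 4738 and 11045 for control cells against 16960, 11980 and 10516 for Taf4asKO cells. Taf4asKO replicate 3 lay below control replicate 3. The mean was 8040 ± 3164 in control and 13152 ± 3378 in Taf4asKO (SD, n = 3). On the log2 scale the change was 0.76 (SE 0.27, adjusted p = 0.0978 with limma), and 0.0224 was the adjusted p with the replicate block. The ratios within equal numbers were 2.04, 2.53 and 0.95. Without control replicate 3, Nr4a1 also passed (log2 fold change 1.04, adjusted p = 0.0334).

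Nr4a3 (NOR1, ENSMUSG00000028341, chromosome 4, 48045153 to 48086445, plus strand) counted 2127, 1358 and 2418 for control cells against 5503, 3069 and 2460 for Taf4asKO cells. The groups did not overlap, but Taf4asKO replicate 3 was nearly level with control replicate 3. Its log2 fold change was 0.86 (SE 0.28, adjusted p = 0.0747 with limma, and adjusted p = 0.0118 with the replicate block). The ratios within equal numbers were 2.59, 2.26 and 1.02.

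Nr4a2 (Nurr1, ENSMUSG00000026826, chromosome 2, 57106830 to 57124003, minus strand), known from dopaminergic neurons, counted 261, 125 and 291 for control cells against 367, 196 and 220 for Taf4asKO cells. The groups overlapped widely, with 2 of the Taf4asKO libraries below 2 of the control libraries. The log2 fold change was 0.24 (SE 0.32, 95% interval -0.47 to 0.96, adjusted p = 0.662). About 111 to 385 reads lay behind each value, which gives a counting error of 5.10% to 9.49%, smaller than the spread between libraries. Nr4a1 and Nr4a3 nevertheless parted from Nr4a2 within libraries. Nr4a1 was 31.94, 37.90 and 37.96 times Nr4a2 in control and 46.2, 61.1 and 47.8 times in Taf4asKO, and Nr4a3 was 8.15, 10.9 and 8.31 times Nr4a2 in control and 14.99, 15.66 and 11.18 times in Taf4asKO. Neither ratio overlapped between the groups. These ratios were chosen after the values were seen and were not tested.

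Klf4 (ENSMUSG00000003032, chromosome 4, 55527143 to 55532466, minus strand), a growth-arrest factor that also serves in reprogramming to pluripotency, had the largest fold change of the 10. It counted 5303, 2965 and 4404 for control cells against 12037, 7229 and 6397 for Taf4asKO cells. The lowest Taf4asKO library exceeded the highest control library. The mean rose from 4224 ± 1179 to 8554 ± 3045 (SD, n = 3). Its log2 fold change of 1.002 passed (SE 0.25, 95% interval 0.45 to 1.56, adjusted p = 0.0269 with limma). Leaving out control replicate 2 or 3, or Taf4asKO replicate 1 or 2, moved it past the limit (adjusted p = 0.0605, 0.0508, 0.0828 and 0.067, with log2 fold changes of 0.77, 1.05, 0.73 and 1.10). Library total scaling, no variance trend and robust shrinkage did so too (adjusted p = 0.0535, 0.123 and 0.0872).

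Klf2 (ENSMUSG00000055148, chromosome 8, 72319033 to 72321656, plus strand), which responds to shear stress in endothelium and keeps T cells quiescent, counted 360, 390 and 348 for control cells against 673, 431 and 477 for Taf4asKO cells. The control libraries were close together (366 ± 21.6, SD, n = 3) and all 3 Taf4asKO libraries lay above them. The log2 fold change was 0.50 (SE 0.16, adjusted p = 0.0707 with limma, and adjusted p = 0.0310 with the replicate block). Summed endothelial markers were 915 to 1372 normalized counts in control and 1489 to 1952 in the libraries labelled Taf4asKO. Of these sums Tek alone gave 692 to 858 and 923 to 960. The part of endothelial cells in the Klf2 values was not tested.

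Ier2 (ENSMUSG00000053560, chromosome 8, 84661331 to 84662852, minus strand, 1 exon) varied least within Taf4asKO and gave the smallest adjusted p of the 10. It counted 5030, 4964 and 5667 for control cells against 7763, 8202 and 7952 for Taf4asKO cells. The groups were clearly apart, with ratios within equal numbers of 1.54, 1.65 and 1.40. Its mean rose from 5220 ± 388 to 7972 ± 220 (SD, n = 3), with a log2 fold change of 0.61 (SE 0.09, 95% interval 0.40 to 0.82, adjusted p = 0.00299 with limma). Ier2 was still past the threshold when any 1 of the 6 libraries was left out. Ier3 (ENSMUSG00000003541, chromosome 17, 35821684 to 35822923, plus strand) counted 486, 439 and 539 for control cells against 764, 633 and 525 for Taf4asKO cells. Taf4asKO replicate 3 lay below control replicate 3, and the log2 fold change of 0.38 (SE 0.15) did not pass (adjusted p = 0.121, and adjusted p = 0.0743 with the replicate block).

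**Figure D3:**
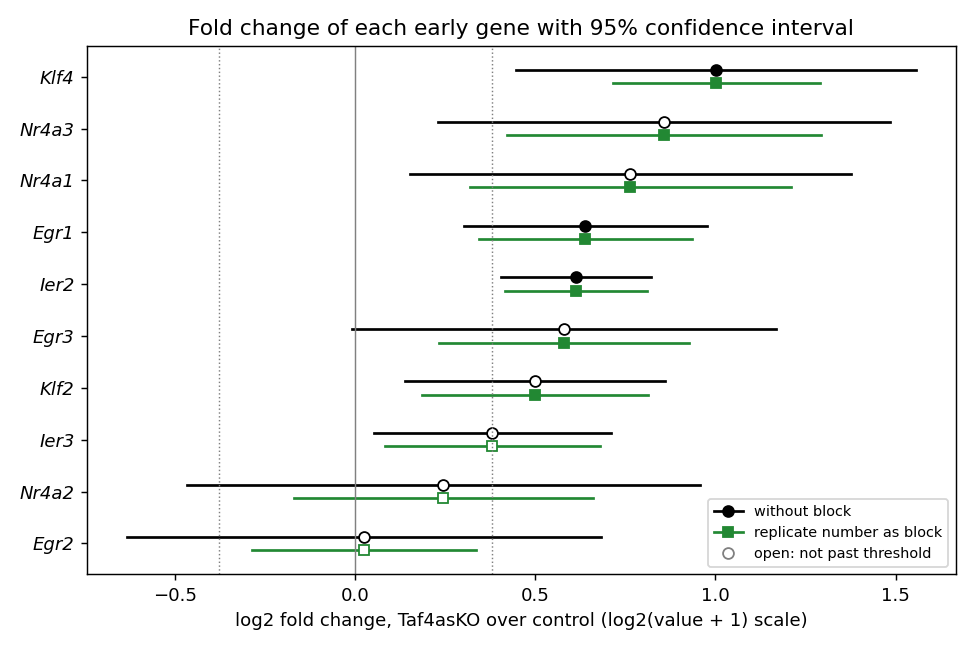
Log2 fold change of Taf4asKO over control (x axis, log2(value + 1) scale) with its 95% confidence interval for each early gene, without a block (black circles) and with the replicate number as block (green squares). Filled symbols passed the threshold, which was met by 3 genes without the block and 7 with it, and dotted lines mark a fold of 1.3.

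The members varied together from library to library within each group. Control replicate 2 was the lowest control library for 9 of the 10 members, Klf2 being the exception, and Taf4asKO replicate 1 was the highest of all 6 libraries for 9, Ier2 being the exception. Summed over the 10 genes, the early genes reached 97629, 76534 and 106570 normalized counts for control cells against 167911, 139780 and 133793 for Taf4asKO cells. These sums made up 0.791%, 0.526% and 0.824% of the library totals in control and 1.29%, 1.03% and 1.01% in Taf4asKO. Egr1 alone gave 71.2% to 78.2% of the sum. Without Egr1, the other 9 members made up 0.201%, 0.115% and 0.212% of the totals in control and 0.371%, 0.251% and 0.233% in Taf4asKO.

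Within equal replicate numbers, 10 of 10 members were higher in Taf4asKO for number 1, 9 for number 2 and 6 for number 3. The median ratio of Taf4asKO to control was 1.62, 1.71 and 1.02 in the same order. In number 3, Egr1, Klf2, Klf4 and Ier2 had ratios of 1.3, 1.37, 1.45 and 1.40, whereas those of Egr2 and Nr4a2 were 0.77 and 0.76. As deviations from the group mean on the log2 scale, 42 of the 45 pairs of members correlated above 0, with a median Pearson r of 0.78 over the 6 libraries. Egr1 and Nr4a1 were closest (r = 0.998), and Klf2 and Ier2 had the lowest value (r = -0.50). Points of such a correlation share their library, with 3 libraries in each group, and the values are given as a description.

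**Figure D4:**
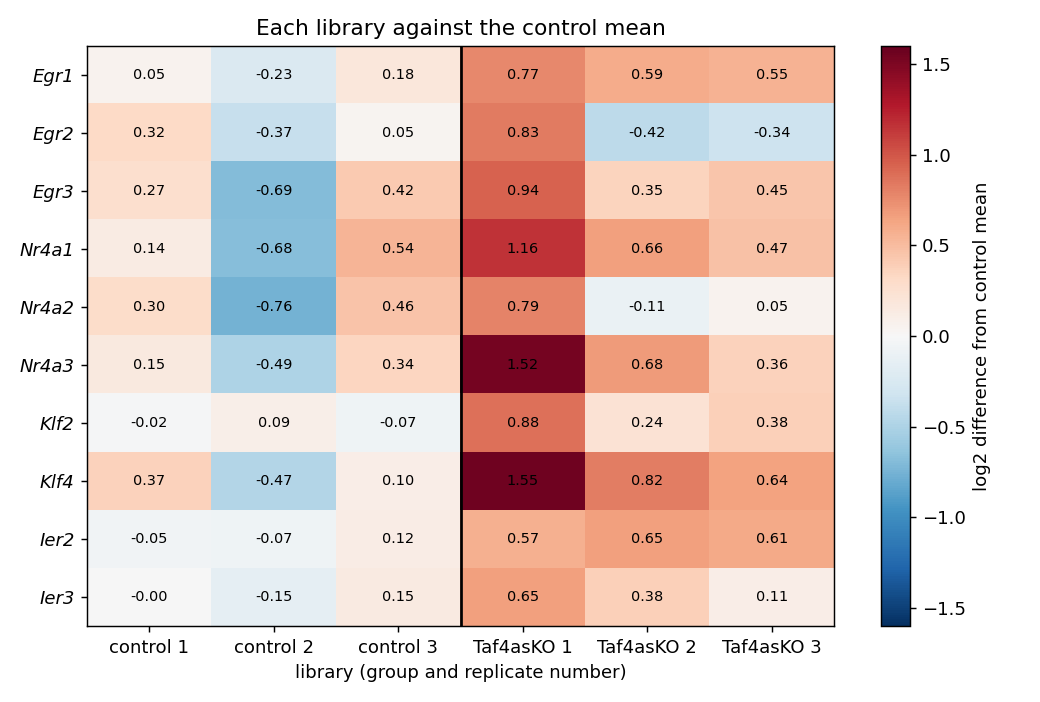
Log2 difference of each library (columns) from the control mean for each early gene (rows), with the value printed in each cell and red for higher values. Control replicate 2 is below the control mean for all members but Klf2, and Taf4asKO replicate 1 is above it for all 10.

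Genes with the pattern most like the mean profile of the 10 members, among 10577 other genes with a mean of at least 50, included Ppp1r15a (r = 0.990), Usp53 (r = 0.987), Btg1 (r = 0.987) and Lzts3 (r = 0.985), by Pearson r over the 6 libraries. In all, 61 genes had r above 0.95. Ppp1r15a, a phosphatase subunit induced by stress, counted 7132, 5592 and 7089 for control cells against 11214, 7816 and 7954 for Taf4asKO cells. Its lowest and highest libraries were those of most early genes, as its selection by this pattern implies. None of these genes passed the threshold without the block, and Ppp1r15a, Usp53 and Btg1 passed with it (adjusted p = 0.0149, 0.0243 and 0.0138). The genes were selected by the pattern over both groups, so these values are a description and no separate support.

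Among relatives and corepressors of the members, more genes rose than fell. Of 16 tested genes of the Klf, Ier and Nab families, 6 were higher and 1 lower past the threshold. Over all tested genes 5.93% were higher and 6.71% lower. The median log2 fold change of the 16 was 0.40. With the replicate block 8 of them were higher, beside 9.09% of all tested genes. Both corepressors that bind EGR proteins rose. Nab1 counted 713, 693 and 764 for control cells against 1095, 1015 and 941 for Taf4asKO cells (log2 fold change 0.49, adjusted p = 0.0126), and Nab2 counted 203, 208 and 229 against 356, 385 and 312 (log2 fold change 0.71, adjusted p = 0.00724). Neither overlapped between the groups. The call was lost for Nab1 without Taf4asKO replicate 1 or 2 (adjusted p = 0.0585 and 0.0689) or the variance trend (adjusted p = 0.0764) and for Nab2 without Taf4asKO replicate 2 (adjusted p = 0.0547). The largest rise was that of Klf15, a glucocorticoid-responsive factor (log2 fold change 0.90, adjusted p = 0.00639), and the only fall was that of Klf16 (log2 fold change -0.87, adjusted p = 0.00643). Klf6 rose as well, with a log2 fold change of 0.40 (adjusted p = 0.0468), which was called in 7 of 18 alternatives and lost without any library but control replicate 1 (adjusted p = 0.0721 to 0.15). Ier5 counted 365, 393 and 376 for control cells against 876, 463 and 474 for Taf4asKO cells, and passed with the replicate block alone (adjusted p = 0.0918, and adjusted p = 0.0318 with the block).

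Genes known to be induced or bound by EGR and KLF factors formed a list of 11, with a median log2 fold change of 0.50. Of these 5 were higher and none lower, beside 5.93% higher and 6.71% lower over all tested genes. With the replicate block 6 were higher and 1 lower, beside 9.09% and 8.98%. Pdgfa, F3, Nos3, S1pr1, Prx and Thbd did not pass without the block. S1pr1 was the gene lower with it (log2 fold change -0.83, adjusted p = 0.163 in limma, and adjusted p = 0.0203 with the block). Nab2 and Tgfb1 were among the genes that rose. Cdkn1a, the p21 inhibitor of cyclin-dependent kinases, changed most, and counted 1058, 589 and 660 against 3330, 1797 and 1700 (log2 fold change 1.54, adjusted p = 0.00553, and adjusted p = 0.0609 without the variance trend). The list shares genes such as Prx with the Schwann cell markers, and those markers moved with the groups too.

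Among 31 tested regulators that switch early genes on, covering SRF and its partners, CREB and its coactivators, MEF2 factors and the kinases of the ERK, p38 and RSK routes, 1 was higher and 2 were lower, beside 5.93% higher and 6.71% lower over all tested genes, and the median log2 fold change was 0.04. With the replicate block 2 were higher and 2 lower. Srf itself fell, and counted 1454, 1299 and 1442 for control cells against 1068, 846 and 815 for Taf4asKO cells (log2 fold change -0.63, SE 0.12, adjusted p = 0.00881). Its groups were apart, although the call was lost without Taf4asKO replicate 2 or 3 (adjusted p = 0.0571 and 0.0532) and without the variance trend (adjusted p = 0.0706). Mapk7, which encodes the kinase ERK5 upstream of MEF2 factors, fell as well (log2 fold change -0.60, adjusted p = 0.0222), and Rps6ka3, which encodes the CREB kinase RSK2, rose (log2 fold change 0.43, adjusted p = 0.0366). Mapk7 was not called without Taf4asKO replicate 2 or 3 (adjusted p = 0.0937 and 0.109) or without the variance trend (adjusted p = 0.0856), nor Rps6ka3 without any library but control replicate 2 (adjusted p = 0.054 to 0.124). Creb1 had a log2 fold change of 0.37 and did not pass (adjusted p = 0.0705). These are transcript values, and activity of the proteins was not measured.

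Among early genes outside these families, more rose than fell. Of 8 AP-1 genes 3 were higher and none lower past the threshold, beside 5.93% and 6.71% of all tested genes. With the replicate block 4 were higher and 1 lower, beside 9.09% and 8.98%. The median log2 fold change of the AP-1 genes was 0.44. Fos counted 49708, 46200 and 46002 for control cells against 95238, 78804 and 77365 for Taf4asKO cells (log2 fold change 0.82, adjusted p = 0.00399), and Junb had the largest rise of the 3 (log2 fold change 0.91, adjusted p = 0.00191). Jun, at 53798 to 57758 in control and 60802 to 71273 in Taf4asKO, did not pass (log2 fold change 0.19, adjusted p = 0.359). Atf3, a stress-induced factor, counted 3275, 1567 and 2163 against 9232, 3523 and 3911 (log2 fold change 1.17, adjusted p = 0.0524, and adjusted p = 8.69e-05 with the replicate block). Of 49 further early genes 21 were higher and 1 lower (25 and 2 with the replicate block), beside the same shares of all tested genes. Their median log2 fold change was 0.50. They include Ppp1r15a and Btg1, named before for their likeness to the members. Gadd45g, a stress sensor, rose most, from 305, 327 and 324 to 1456, 1037 and 963 (log2 fold change 1.83, adjusted p = 0.000125), and Tnfaip3, an inhibitor of NF-κB, was the fall (log2 fold change -0.91, adjusted p = 0.0278), which was lost without any library but control replicate 2 (adjusted p = 0.0592 to 0.111). Early genes were therefore not all higher, since 38 of the 49 had a log2 fold change above 0, beside 50.45% of all tested genes.

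Among heat shock genes, which are also known to respond to tissue dissociation, more fell than rose. Of 13 tested, 1 was higher and 4 were lower, beside 5.93% and 6.71% of all tested genes. With the replicate block 2 were higher and 4 lower, beside 9.09% and 8.98%. The median log2 fold change of the 13 was -0.25. Over the other 17 alternatives 0 to 5 heat shock genes were lower. Hspa1b, the inducible HSP70, counted 3387, 5833 and 6664 for control cells against 2477, 1347 and 1354 for Taf4asKO cells (log2 fold change -1.62, adjusted p = 0.00488, and adjusted p = 0.0583 without the variance trend). Its control replicate 1 was the lowest control library, whereas control replicate 2 was the lowest for most early genes. Hspb8, a small heat shock protein, was the rise (log2 fold change 1.09, adjusted p = 0.00548).

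**Figure D5:**
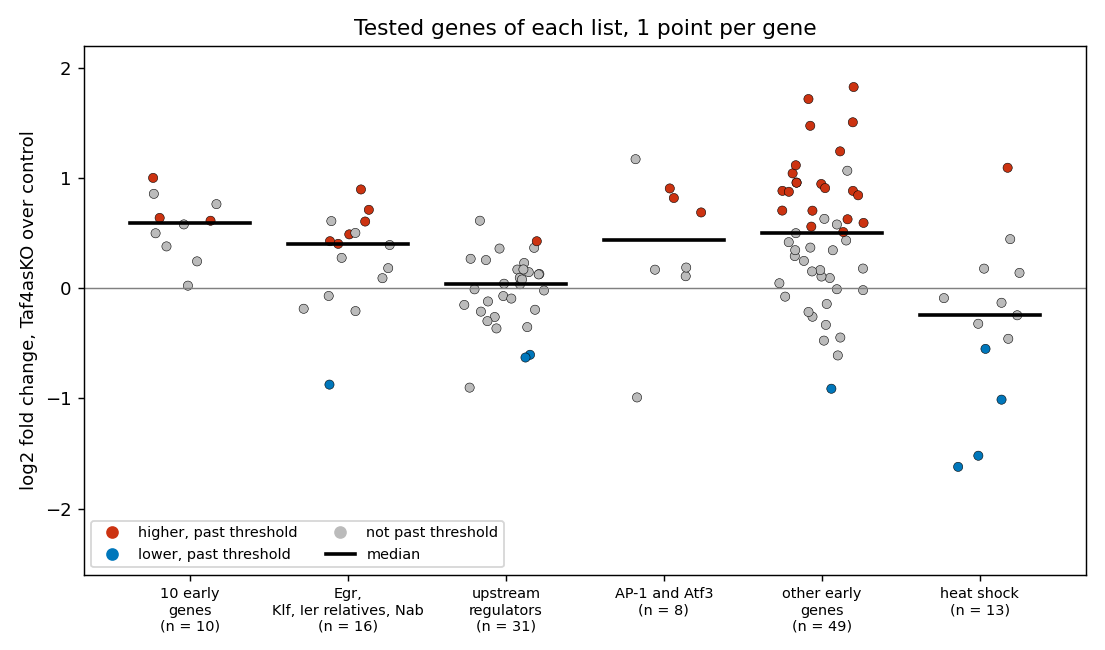
Log2 fold change (y axis, Taf4asKO over control) of every tested gene of 6 lists, with 1 point per gene, red and blue for genes past the threshold and a black bar for the median. Medians are 0.60 for the 10 early genes, 0.04 for upstream regulators and -0.25 for heat shock genes.

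Markers of some other cell types, Schwann cells most clearly, moved with the groups. Those of all types looked at are set beside the early genes here. Of 7 Schwann cell markers 5 were higher and none lower, beside 5.93% and 6.71% of all tested genes. Their sums were 1655 to 3669 normalized counts in control and 4571 to 5612 in the libraries labelled Taf4asKO. Of 7 pericyte and smooth muscle markers 2 were higher, with sums of 9832 to 15540 against 15769 to 18651. None of the 8 endothelial markers passed, with sums of 915 to 1372 against 1489 to 1952, of which Tek gave 692 to 858 and 923 to 960. None of 5 immune or 6 myofibre markers passed. Immune sums were 478 to 591 against 700 to 947, but the difference lay in Lyz2, and the other 4 immune markers had log2 fold changes below 0 and sums of 384, 165 and 271 against 235, 218 and 221. Among 8 fibro-adipogenic markers 2 were lower, namely Col3a1 and Dpt, while the other 6 had log2 fold changes above 0. Their sums of 55602 to 81843 against 33919 to 56226 were carried by Col3a1, and without it were 9377 to 34143 against 20837 to 38653. Over the 17 alternatives other than the block, 0 to 6 Schwann and 0 to 5 pericyte and smooth muscle markers were higher, with 0 of either without the variance trend. With the replicate block 6 Schwann, 6 pericyte and smooth muscle, 3 endothelial, 4 fibro-adipogenic and 1 immune marker were higher. The share over all tested genes was 9.09% in that fit. No tested marker was at 0 in any library. The sums of Schwann, pericyte and endothelial markers were lowest in control replicate 1, and their highest value lay in Taf4asKO replicate 2 or 3, whereas early genes were mostly lowest in control replicate 2 and highest in Taf4asKO replicate 1. The part of these cells in the early-gene values was not tested.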

How the data were processed

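Total RNA of sorted MuSCs was sequenced in 6 libraries, grouped by the genotype label. According to the study's methods and processing notes, the authors trimmed reads with Trimmomatic 0.39, aligned them to mm10 with STAR 2.6.0c, removed multi-mapping reads, counted exonic reads with featureCounts 1.6.0 without those of several genes, and normalized with DESeq2 1.14.1. Whether counting used strand is not stated, and no member overlaps another gene of GENCODE M21. The deposited values are a score, namely counts that the authors scaled with the size factor of each library, as whole numbers, so no count model was fitted. There were 0 value columns without a sample.

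Genes with a mean of at least 5 entered limma 3.58.1 (R 4.3.3, trended eBayes, two-sided) on log2(value + 1), which understates changes of low genes, with Benjamini-Hochberg adjustment over 18562 genes. The groups and limits follow the study's methods. Reads per library were estimated from gaps between the whole numbers that occur. Exon lengths come from GENCODE M21, in which 99.8% of the identifiers were found, and gene positions from the table. Figures were drawn with matplotlib 3.10.9.

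Titles number the replicates 1 to 3 in both groups. Deviations of equal-numbered libraries from their group means correlated at 0.235, 0.126 and 0.15 over all tested genes, and those of other pairs between -0.149 and 0.0141, so the numbers were taken to pair the libraries. This rests on the values, since the labels name no shared litter or day. Nor do they say that libraries are separate animals, so p-values measure the spread between these libraries only.

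Members and lists were chosen with earlier results of these data known. Genes named from a list are its largest fall and rise past the threshold, with Fos, Jun, Atf3, Nab1, Nab2, Egr4, Klf6, Ier5, Srf and Creb1. The 5 genes most like the members were to be named too. Mapk7, Rps6ka3, Tgfb1, Prx, Pdgfa, F3, Nos3, S1pr1, Thbd, Tek, collagen and dermatopontin genes were added with their values in view. Alternatives were other scalings, pseudocounts, filters, limits and variance models, the replicate block and leaving out each library. Klf17 and the immune markers Ptprc, Adgre1 and Cd3e were not analysed here. Some genes that the rule would name are not reported here.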

Additional observations from a re-analysis of the deposited data

How the results depend on the processing

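The counts over the early genes and over all genes, and the fold changes of the members and of 25 other genes, were recomputed under 18 alternatives. Levels, ratios, correlations, marker sums and some further named genes were not. The count of early genes past the threshold, all of them higher and 3 in the reported fit, was 7 with the replicate block, 1 with library total scaling, 1 without the variance trend, 1 when a fold of 2 was asked for, 1 when the adjusted p had to be under 0.01, and 1 to 3 when 1 library was left out. No early gene was lower under any alternative. The count over all genes, 2347 in the reported fit, was 941 without the trend, 850 with the fold limit of 2, 876 with the adjusted p limit of 0.01, 956 to 3096 when 1 library was left out, and 3355 with the replicate block.

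The replicate block, which adds the pairing by number, brought Egr3, Nr4a1, Nr4a3 and Klf2 past the threshold and changed no other call among the 10. Ier2 was called in 17 of the 18 alternatives, with the fold limit of 2 as the exception, and Egr1 and Klf4 in 10 each. The log2 fold change of Egr2 reversed without control replicate 2 (-0.16) and without Taf4asKO replicate 1 (-0.38), and so did that of Nr4a2 (-0.13 and -0.03). Over the 6 fits without 1 library, Egr2 ranged from -0.38 to 0.25 and Nr4a2 from -0.13 to 0.47. The cause was not tested. Without the variance trend, the calls of Klf6, Rps6ka3 and Tnfaip3 were lost as well (adjusted p = 0.161, 0.142 and 0.12). The other 8 members had positive values under all 18 alternatives. Scaling moved the median log2 fold change of all genes to between -0.016 and 0.003. The share of calls that were higher, 46.9% in the reported fit, was 43.2% with upper-quartile scaling, 35.8% without the trend, 50.3% with the block and 35.7% to 51.9% when 1 library was left out.

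Of the 49 further early genes, 7 to 22 were higher under the 17 alternatives other than the block, and 25 with the block. Over the same 17, the genes higher numbered 0 to 6 of the relatives and corepressors, 0 to 4 of AP-1, 1 to 6 of the EGR and KLF targets and 0 to 3 of the regulators, and 0 to 5 heat shock genes were lower. With 3 libraries per group and 1 library deciding several calls, small differences such as that of Nr4a2 could not be told from the spread, and that of Ier3 failed the adjustment over all genes.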
